A study of Mus musculus with 2 samples.

Results

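Matrix metalloproteinases (MMPs) and the tissue inhibitors of metalloproteinases (TIMPs) were examined in hepatocytes from mice with CCl4-induced liver fibrosis. The set holds 10 named genes of the 20317 mRNA genes with a symbol in the deposited table, namely the 7 proteases Mmp2, Mmp8, Mmp9, Mmp12, Mmp13, Mmp14 and Mmp19 and the 3 inhibitors Timp1, Timp2 and Timp3. They were chosen by name, and each was found in the table by its RefSeq identifier. RNA-seq was performed on 2 libraries of primary hepatocytes from wild-type male C57BL/6J mice, which were 5 weeks old according to the methods. The oil library came from control mice injected with the vehicle, and the CCl4 library from mice injected intraperitoneally 2 times a week with 20% CCl4 in oil at 2.5 ml CCl4 per kilogram of body weight. Hepatocytes turn this solvent into a toxic radical, and repeated doses are a standard way to cause liver fibrosis. Values of the 2 libraries are written as with oil and with CCl4. The labels give 8 weeks of injection and the methods 4 weeks, and how many mice were pooled for a library is not given in the sources used here. Each group has 1 library, so no difference given here has a replicate check and no p-value is given.

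MMPs are zinc-dependent enzymes that cut collagens, elastin and other proteins of the extracellular matrix, and they are made as inactive proenzymes. TIMPs bind the active site and block it, and the balance between proteases and inhibitors sets how much scar matrix is removed. In the liver both are made largely by stellate cells, macrophages and other non-parenchymal cells, and to a lesser extent by hepatocytes. A transcript level says nothing of how much of an enzyme is active.

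Levels are given in RPKM, reads scaled to transcript length and library size, so that genes of different lengths can be set side by side. The recovered depth was 57992579 reads for the oil library and 64655537 reads for the CCl4 library. No value above 0 and under 1 RPKM occurs in the mRNA table, and a gene at 0 is therefore described as listed at 0. A difference is the log2 ratio of RPKM with CCl4 to RPKM with oil. Those of the 7 members with a value in both libraries and of the sums over all members come with a 95% interval computed from the smallest number of reads that gives the value, which covers counting error alone. A gene was called higher or lower at an absolute log2 ratio of at least 1, with a listed 0 set to 1 RPKM for the call. The median gene at 1 RPKM or more in both libraries had a log2 ratio of 0.30, a shift that is part of every ratio below unless another scaling is named.

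Of the 10 genes, 9 reached 1 RPKM in at least 1 library. Of these, 5 were higher with CCl4 (the proteases Mmp2, Mmp12 and Mmp14 and the inhibitors Timp1 and Timp2) and 0 were lower. Of all 12012 mRNA genes compared in this way, 16.5% were higher and 5.39% lower. Mmp2 and Mmp12 entered only through the CCl4 library and could differ in no other direction. Of the 7 members at 1 RPKM or more in both libraries, 3 were higher, against 15.1% of the 10689 such genes. In a bulk sample, a larger share of cells of a type and more RNA per cell cannot be told apart.

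**Figure D1:**
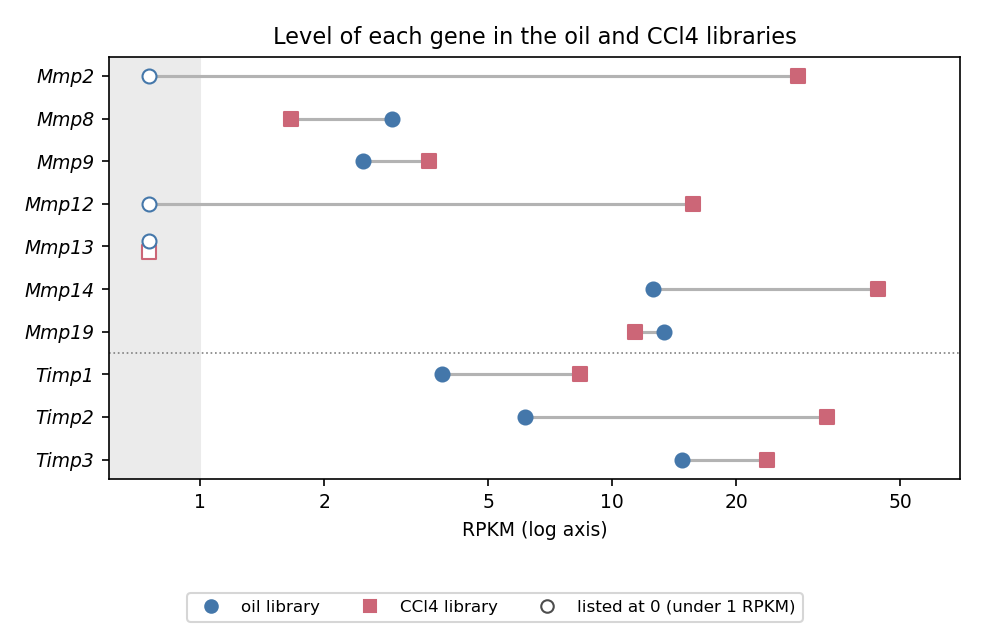
RPKM on a log axis for the 7 proteases (above the dotted line) and the 3 inhibitors, with oil (circles) and with CCl4 (squares), 1 library each, where open symbols in the grey band mark genes listed at 0, placed there without a value. Mmp14, at 12.6 and 44.2 RPKM, is the only member over 40 RPKM, and Mmp8 and Mmp19 are the only members with a CCl4 value below the oil value.

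Promoter sequences are shown so that the proteases and inhibitors can be set side by side in sequence as well as in level. RefSeq windows of GRCm38.p6, the assembly that mm10 names, run from 250 bases before to 50 bases after a gene's start, and they were matched for 7 of the 10 members, with 8 windows in all. Mmp2, Mmp9 and Mmp19 had no window and were not searched. The letters TGANTCA, the site of AP-1 (the Fos and Jun family of transcription factors), and TATAAA, the TATA box, were searched on both strands. The 120 bases before the start are printed 5′ to 3′ on the gene's strand, with TGANTCA and TATAAA matches in capitals, for the protease windows that hold an AP-1 match (Mmp12 at its second start and Mmp13) and for Mmp14, Timp1 and Timp2, which were called higher. The window of the first start of Mmp12 is not printed.
Mmp12, second start, chr9:7347254-7347373 (+): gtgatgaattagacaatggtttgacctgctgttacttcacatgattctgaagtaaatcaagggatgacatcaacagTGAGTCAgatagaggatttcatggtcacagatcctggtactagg
Mmp13, chr9:7272394-7272513 (+): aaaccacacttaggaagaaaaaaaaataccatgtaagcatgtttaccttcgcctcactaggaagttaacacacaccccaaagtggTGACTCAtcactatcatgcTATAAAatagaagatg
Mmp14, chr14:54431478-54431597 (+): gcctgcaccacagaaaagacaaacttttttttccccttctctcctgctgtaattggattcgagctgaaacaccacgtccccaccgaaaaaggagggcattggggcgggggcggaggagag
Timp1, chrX:20870046-20870165 (+): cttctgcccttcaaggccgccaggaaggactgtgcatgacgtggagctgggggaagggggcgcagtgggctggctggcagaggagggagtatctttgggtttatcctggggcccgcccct
Timp2, chr11:118355412-118355531 (-): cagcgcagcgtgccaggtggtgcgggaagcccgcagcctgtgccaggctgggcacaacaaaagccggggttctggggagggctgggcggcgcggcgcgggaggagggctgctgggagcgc

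AP-1 letters stood in 2 of these windows, that of Mmp13 (TGACTCA, beginning 35 bases before the start) and that of the second start of Mmp12 (TGAGTCA, 44 bases before it). Among all 32851 RefSeq windows of this length, 7.81% held TGANTCA and 13.6% TATAAA, and 1.54% held both. Mmp13 and the second start of Mmp12 held both, with TATAAA 16 bases before the start of Mmp13 and just past the start of Mmp12, and Mmp8 held TATAAA on the reverse strand at its start. No match was found in the windows of Mmp14, Timp1, Timp2 and Timp3 or at the first start of Mmp12. These windows also differed in base composition. The Timp2 and Timp3 windows held 25 and 24 CpG dinucleotides with 68.7% and 67% G and C, against 10 CpG in Mmp14, 8 in Timp1, and 0 to 4 in Mmp8, Mmp12 and Mmp13. The median over all windows was 7 CpG and 52.7% G and C. Both genes with an AP-1 match were listed at 0 with oil, and with CCl4 Mmp12 was at 15.7 RPKM while Mmp13 was still listed at 0. Mmp2, also listed at 0 with oil, had no window. A match describes the letters of a window and is not evidence that a factor binds there.

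Mmp14, Timp2 and Mmp2 are described together because their proteins act together. MMP14 is a membrane-anchored collagenase, and TIMP2 bound to it holds the proenzyme of MMP2, which a neighbouring free MMP14 then cuts into its active form. Mmp14 (chr14:54431598-54442456) was at 12.6 RPKM with oil and 44.2 RPKM with CCl4. It was thus 3.52-fold higher, with a log2 ratio of 1.81 (1.74 to 1.89) from at least 1893 and 7419 reads. Only 2.72% of the 10689 genes measured in both libraries had a larger ratio. By level it moved from rank 3006 to rank 974 among the mRNA genes.

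Timp2 (chr11:118301061-118355411) was at 6.15 RPKM with oil and 33.3 RPKM with CCl4. The difference was 5.41-fold, a log2 ratio of 2.44 (2.32 to 2.56) from at least 646 and 3899 reads. This was the largest ratio among the 7 members with a value in both libraries, and 103 of the 10689 genes measured in both libraries exceeded it. Mmp2 (chr8:92827290-92853421), the gelatinase that this complex activates, was listed at 0 with oil and at 28.2 RPKM with CCl4, from at least 971 reads. No fold is given against a listed 0. In the CCl4 library its rank was 1568. The level of Mmp14 per Timp2 was 2.04 with oil and 1.33 with CCl4, a log2 change of -0.62. In the CCl4 library the Mmp2 level was 0.846 of the Timp2 level.

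The other gelatinase, Mmp9 (chr2:164940326-164955850), which cuts denatured collagen and type IV collagen, was at 2.49 RPKM with oil and 3.59 RPKM with CCl4. Its log2 ratio of 0.53 (0.36 to 0.70) did not reach the threshold, and 35.8% of the genes measured in both libraries had a larger one. The 2 gelatinases differed in order, with Mmp2 above Mmp9 with CCl4 and below it with oil.

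The macrophage elastase Mmp12 (chr9:7344397-7360461), an enzyme typical of macrophages, was listed at 0 with oil and at 15.7 RPKM with CCl4. Its value with CCl4 stood for at least 233 reads and rank 2856. Together with Mmp2 it belongs to the 1162 genes (9.67% of those compared) that reached 1 RPKM only with CCl4, against 161 genes only with oil.

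The interstitial collagenases, which make the first cut in fibrillar collagen, were low. Mmp8 (chr9:7558429-7568486), also called neutrophil collagenase, was at 2.92 RPKM with oil and 1.66 RPKM with CCl4. Its log2 ratio was -0.81 (-1.04 to -0.59), short of the threshold, and 91.9% of the genes had a larger one. Relative to the median gene the ratio was -1.12, so with that scaling Mmp8 was called lower. Mmp13 (chr9:7272514-7283333), the main interstitial collagenase of rodents, was listed at 0 in both libraries and was left out of every call. Mmp19 (chr10:128790910-128800827), which cuts proteins of the basement membrane, was at 13.4 RPKM with oil, the highest protease there, and at 11.3 RPKM with CCl4. Its log2 ratio was -0.24 (-0.32 to -0.16), and a second transcript of the gene gave -0.23.

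The other inhibitors differed by less than Timp2. Timp1 (chrX:20870166-20874737), a secreted inhibitor often used as a marker of fibrosis, was at 3.87 RPKM with oil and 8.35 RPKM with CCl4. It was 2.16-fold higher, with a log2 ratio of 1.11 (0.87 to 1.36) from at least 199 and 479 reads, and the interval reached below the threshold. The call was lost with 1 RPKM added to both values and, at 0.81, relative to the median gene. A second Timp1 transcript gave the same log2 ratio of 1.11. Timp3 (chr10:86300412-86349505), which is held in the matrix and also blocks ADAM and ADAMTS proteases, was at 14.8 RPKM with oil, the highest of the 10 genes, and at 23.8 RPKM with CCl4. Its log2 ratio of 0.69 (0.62 to 0.75) did not reach the threshold, and 26.9% of the genes had a larger one.

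**Figure D2:**
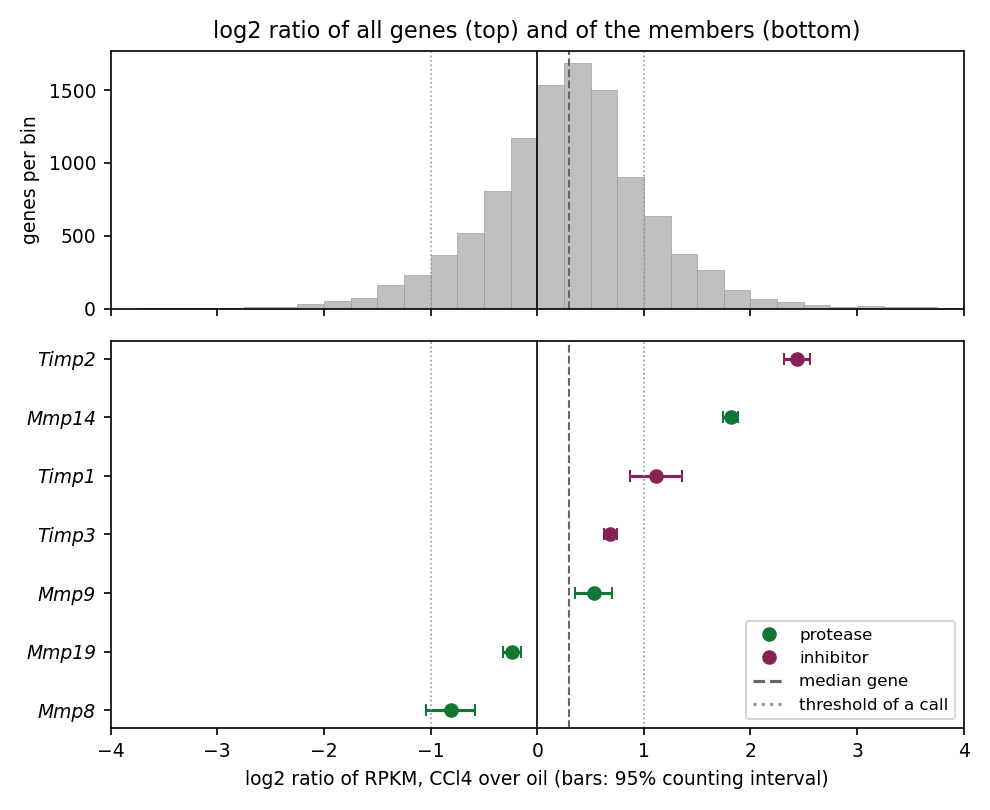
Top, number of genes per bin of the log2 ratio of RPKM (CCl4 over oil) for genes at 1 RPKM or more in both libraries, drawn from -4 to 4, and bottom, the 7 members with a value in both libraries, with bars for the 95% counting interval, a dashed line at the median gene (0.30) and dotted lines at the threshold of a call. Timp2 at 2.44 and Mmp14 at 1.81 lie clear of the threshold, the interval of Timp1 crosses it on the higher side and that of Mmp8 on the lower side.

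Reads from genes that overlap the members could enter their values, since the strand setting of the counting is not given in the sources used here. Timp1 lies within Syn1 and Timp3 within Syn3, genes of synaptic vesicle proteins, and both were listed at 0 in both libraries. Cep295nl, which overlaps Timp2, was also listed at 0 in both. Tmem198b overlaps Mmp19 and was at 6.14 RPKM with oil and 8.24 RPKM with CCl4. The lncRNA genes Gm45472 and Gm31751 overlap Mmp2 and Mmp8 and have no value here.

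To compare proteases with inhibitors, the RPKM values of each were summed. The 7 proteases summed to 31.3 RPKM with oil and 104.7 RPKM with CCl4, and the 3 inhibitors to 24.8 and 65.4 RPKM. With each listed 0 set to 1 RPKM, the log2 ratio was 1.62 (1.57 to 1.68) for the proteases and 1.4 (1.34 to 1.46) for the inhibitors. The protease sum per inhibitor sum was 1.39 with oil and 1.62 with CCl4 on this scale, a log2 change of 0.22 (0.14 to 0.30). With the listed 0 kept as 0 it was 1.26 and 1.60, a log2 change of 0.34. Both sums were thus higher with CCl4, but which was higher by more turned on Mmp2 and Mmp12. Over the 4 proteases with a value in both libraries the sum was 31.3 RPKM with oil and 60.8 RPKM with CCl4 (log2 ratio 0.96), and the ratio to the inhibitors was 1.26 and 0.929, a log2 change of -0.44. Without Mmp14 the log2 change was 0.10 with each listed 0 set to 1 RPKM and 0.29 with zeros kept. The interval leaves out the choice of value for a listed 0 and any spread between mice or libraries. A change of this size therefore cannot be set against replicate error.

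The make-up of both sums also differed. In the oil library Mmp19 gave 42.6% and Mmp14 40.1% of the protease sum, and Mmp8 and Mmp9 gave 9.33% and 7.94%. In the CCl4 library Mmp14 gave 42.2%, Mmp2 26.9%, Mmp12 15.0% and Mmp19 10.8%. Mmp14 thus gave a like share of both sums, while the share of Mmp19 was smaller with CCl4, where Mmp2 and Mmp12 had values. Among the inhibitors Timp3 gave the most with oil, 59.6%, and Timp2 the most with CCl4, 50.9%, and Timp1 gave 15.6% and 12.8%.

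The ratio differed in direction with the inhibitor taken. With each listed 0 kept as 0, the 7 proteases per Timp1 were 8.10 with oil and 12.5 with CCl4, and per Timp3 they were 2.12 and 4.41. Per Timp2 they were 5.09 and 3.14, a log2 change of -0.70. For the summed proteases the direction per Timp1 turned on Mmp2 and Mmp12, which had a value only with CCl4. Over the 4 proteases with a value in both libraries the sum had a log2 ratio of 0.96. This was less than that of Timp1 (1.11) and Timp2 (2.44) and more than that of Timp3 (0.69). Mmp14 alone had log2 changes of 0.70 per Timp1, 1.13 per Timp3 and -0.62 per Timp2. The order of the inhibitors in such ratios is set by their own log2 ratios and is the same for any protease.

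**Figure D3:**
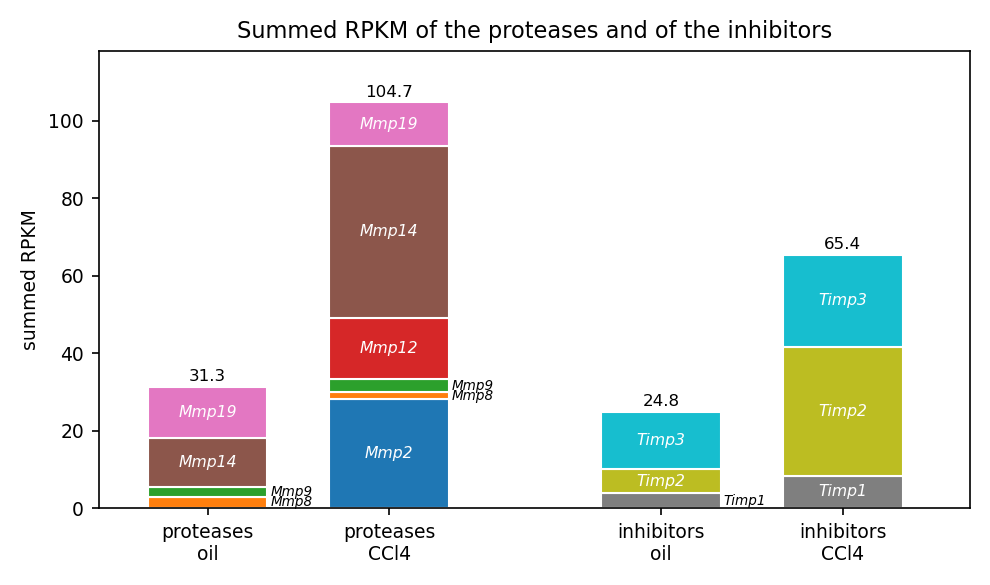
Summed RPKM of the 7 proteases and of the 3 inhibitors in the oil and CCl4 libraries (1 library each), with a block for each gene that has a value and the total above each bar. The totals are 31.3 and 104.7 RPKM for proteases and 24.8 and 65.4 RPKM for inhibitors, with Mmp14 the largest protease block and Timp2 the largest inhibitor block with CCl4.

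The rest of the MMP family was low. Of 16 other Mmp genes, 15 were matched, 9 of them were listed at 0 in both libraries, and 1 of the 6 measured was higher and 0 lower. That gene was Mmp23, at 1.54 RPKM with oil and 9.61 RPKM with CCl4 (log2 ratio 2.64). Mmp15, a membrane-type relative of Mmp14, was at 4.52 and 4.19 RPKM. Over the 12 Mmp genes that reached 1 RPKM in at least 1 library, which adds the 6 measured genes to the members and leaves out Mmp13, the protease to inhibitor ratio was 1.75 with oil and 1.89 with CCl4 with each listed 0 set to 1 RPKM (log2 change 0.11), and 1.55 and 1.89 with zeros kept (0.29). The fourth inhibitor, Timp4, was listed at 0 in both libraries.

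Most inhibitors outside the TIMP family were lower with CCl4. The alpha-macroglobulins are large plasma proteins, secreted by hepatocytes, that trap proteases of many classes. Pzp was at 494.6 RPKM with oil and 173.5 RPKM with CCl4 (log2 ratio -1.51). Mug1 was at 257.5 and 86.8 RPKM (-1.57) and Mug2 at 43.5 and 20.7 RPKM (-1.07). Tfpi2, a secreted serine protease inhibitor reported to act on some MMPs, was at 18.2 and 7.08 RPKM (-1.36). Of 6 measured genes of this list 4 were lower and 0 higher, with a median log2 ratio of -1.22 against 0.33 for all genes compared. The hepatocyte markers had a median of -1.43, and their part in these values was not tested. Reck, a membrane-anchored inhibitor of MMPs, was listed at 0 with oil and at 1.47 RPKM with CCl4.

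Among genes that activate or clear MMPs, 6 of 13 were higher and 2 lower, with a median log2 ratio of 0.77. Of all genes compared, 16.5% were higher and 5.39% lower. The list's median was 0.47 with median-of-ratios scaling and 0.02 with a mean of at least 5 RPKM. Its summed RPKM was lower with CCl4, at 945.7 with oil and 666.0 with CCl4. The plasminogen system showed both directions. Plau (urokinase) was at 1.61 RPKM with oil and 6.75 RPKM with CCl4, its receptor gene Plaur at 3.95 and 9.22 RPKM, and Plat (tissue plasminogen activator) was listed at 0 and at 6.89 RPKM. Plg, the liver-made precursor of plasmin, was lower, at 346.5 and 157.7 RPKM (-1.14), as was the plasmin inhibitor Serpinf2, at 236.6 and 114.0 RPKM (-1.05). Furin, which activates Mmp14 inside the cell, was at 24.9 and 25.8 RPKM.

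Nearly all the measured genes of matrix substrates were higher with CCl4. Of 11 measured matrix genes 10 were higher and 0 lower, with a median log2 ratio of 2.57. Col1a1 was at 3.02 RPKM with oil and 130.5 RPKM with CCl4 (5.43), and Col3a1 at 19.6 and 290.1 RPKM (3.89). Fn1 was at 113.3 and 94.2 RPKM (-0.27). The summed RPKM of the list was 234.3 with oil and 1150 with CCl4.

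Of 9 measured AP-1 subunits 2 were higher and 0 lower, with a median log2 ratio of 0.47. Of all genes compared 16.5% were higher, and their median was 0.33. The median of the subunits was 0.17 with median-of-ratios scaling and 0.18 with a mean of at least 5 RPKM. The 2 were Atf3, at 3.25 RPKM with oil and 13.9 RPKM with CCl4, and Batf, at 2.92 and 6.83 RPKM. The more abundant Junb was at 98.5 and 81.6 RPKM, Jun at 25.5 and 27.0 RPKM and Fos at 19.2 and 26.7 RPKM.

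Markers of several cell types also differed between the libraries. Of the labelled cell type's markers Alb, the gene of serum albumin, was at 8656 RPKM with oil and 6476 RPKM with CCl4, and 7 of 10 hepatocyte markers were lower with CCl4 (summed RPKM 18153 and 10351, median log2 ratio -1.43). All 10 genes on the quiescent stellate cell list were higher (75.1 and 496.8 RPKM), and Pdgfrb and Ngfr were listed at 0 with oil. Dcn, which is also on the matrix substrate list, gave 36.1 and 213.9 RPKM of these sums. Whether the genes of this list mark quiescent rather than activated cells was not tested. Of the 10 activated stellate cell and myofibroblast markers 9 were higher (44.1 and 663.2 RPKM), with Lox and Cthrc1 listed at 0 with oil and Acta2 at 1.58 and 8.92 RPKM. This list shares collagen genes, among them Col1a1 and Col3a1, with the matrix substrates, so the 2 lists are not separate.

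For the macrophage elastase Mmp12 the macrophage lists are given. Of 10 monocyte and macrophage markers 9 were higher (108.0 and 726.8 RPKM), with Gpnmb at 1.19 and 217.3 RPKM and Trem2 at 4.58 and 107.2 RPKM, and none was at 0. Of 8 Kupffer cell markers 3 were higher (796.3 and 1424 RPKM), namely Marco at 42.3 and 277.9 RPKM, Adgre1 at 33.1 and 78.8 RPKM and Cd5l at 277.6 and 594.6 RPKM, and Clec4f was at 282.6 and 254.5 RPKM. For the neutrophil collagenase Mmp8, 3 of 10 neutrophil markers were lower and 1 higher (325.5 and 229.8 RPKM). Mpo, at 3.11 RPKM and listed at 0, was among the lower ones, and Retnlg, at 17.0 and 48.7 RPKM, was the higher one. S100a8, at 114.4 and 65.2 RPKM, and Camp, at 7.17 and 6.71 RPKM, were not called. Of 8 sinusoidal endothelial markers 2 were higher (546.1 and 931.7 RPKM). The part of these cells in the members' values was not tested.

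**Figure D4:**
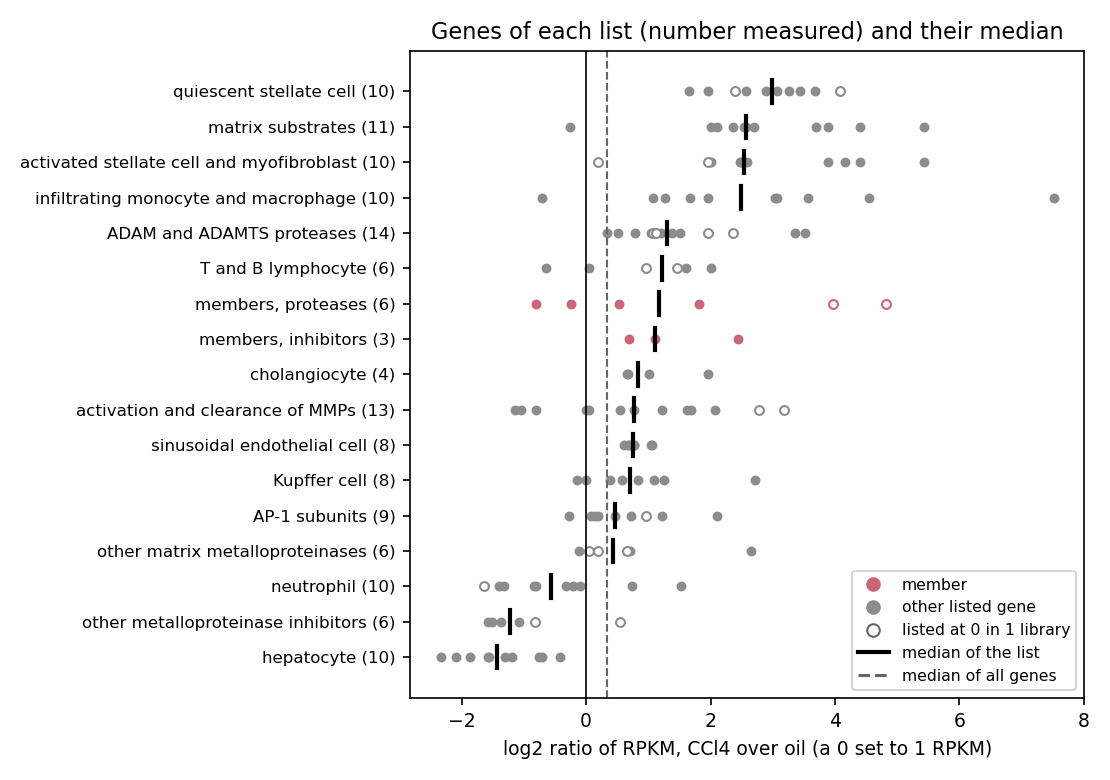
Log2 ratio of RPKM (CCl4 over oil, a listed 0 set to 1 RPKM) of each measured gene of the member sets, the related gene lists and the cell type marker lists, with the number measured in brackets, the median of each list as a bar and the median of all genes as a dashed line. The lists of stellate cells, matrix substrates and infiltrating monocytes and macrophages have medians between 2.49 and 2.98, the member proteases and inhibitors 1.17 and 1.11, and the hepatocyte list and the other inhibitors lie lowest at -1.43 and -1.22. The matrix substrate list shares collagen genes with the activated stellate cell list and Dcn with the quiescent one. The protease median rests on Mmp2 and Mmp12, which had a value only with CCl4. The 4 proteases with a value in both libraries had log2 ratios of 1.81 (Mmp14), 0.53 (Mmp9), -0.24 (Mmp19) and -0.81 (Mmp8).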

How the data were processed

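RNA was sequenced from total RNA of hepatocytes isolated by pronase and collagenase perfusion and a density gradient. The submitters' processing notes name CASAVA 1.4, TopHat2 and the build mm10. The counting program, annotation version and strand setting are not given in the sources used here. The authors deposited RPKM values for annotated transcripts, with values under 1 listed as 0, and read counts, lengths and RPKM for lncRNAs absent from the annotation. The deposited columns of log2 change, p-value and q-value hold the authors' own comparison and were not used.

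Symbols and coordinates came from a RefSeq table of GRCm38.p6, whose accessions matched 27049 of 27457 mRNA transcripts. A gene was represented by its transcript of highest mean RPKM. Genes at 1 RPKM or more in at least 1 library were compared. Library totals were recovered from the steps between RPKM values of RefSeq genes shorter than 400 bases, which gave whole reads in 94.7% (oil) and 94.2% (CCl4) of 225 and 240 genes. Reads per gene are lower bounds from the shortest length that gives whole reads in each library with a value. For Mmp2 and Mmp12 this is the CCl4 library alone. On 42 lncRNAs with deposited counts and 1 RPKM or more in both libraries, the bounds were equal to the counts in 34 and above in 0. That check does not cover genes with a value in 1 library. Intervals are exact Clopper-Pearson intervals at 95% and cover counting error alone, and reads that are PCR copies make them too narrow. The interval of a sum is a normal approximation on the log2 scale from the reads of its genes. Scripts were tested on simulated data.

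Members and lists were chosen with earlier results of these data known. Named genes are the 10 members and genes selected from the lists. The selected genes include called genes, genes that head a list by mean RPKM, genes listed at 0 and some purity markers of the study. Some listed genes are not reported here. Alternatives were a pseudocount of 0.1 or 1 RPKM, other filters (1 RPKM in both libraries, a mean of 5 RPKM), median-of-ratios scaling, library size without the 10 most abundant transcripts, the lowest transcript of a gene, a log2 threshold of 2, and sums over other genes. The scripts used numpy 2.4.6, pandas 2.3.3, scipy 1.17.1 and matplotlib 3.10.9 under Python 3.11.15.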

Additional observations from a re-analysis of the deposited data

Results flagged for a closer look

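An lncRNA absent from the annotation, TCONS_00049382, lies at chr2:164962987-164963701 on the plus strand, 7137 bases from Mmp9 and within the position of Slc12a5. It had 4 reads with oil and 21 reads with CCl4, a signal above the control in data that the comparisons of the members did not use. These are deposited read counts without normalization, with 1 library a group. The other such lncRNA near a member, TCONS_00083154, lies 61287 bases from Mmp13 at Dcun1d5 and had 37 and 36 reads.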

How the results depend on the processing

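No paired analysis was possible because each group has 1 library, and for the same reason no replicate could be left out. Of the values tried, only the protease to inhibitor ratio reversed its direction. Of the alternatives for the counts of calls, the sums and their ratio, 33 left the value as it was within its limits, 19 moved it and 1 reversed it. For single genes and list medians 97 were as they were and 55 moved. Of the mRNA genes, 1984 were higher and 647 lower. The number higher was 992 with a mean of at least 5 RPKM, 1128 with median-of-ratios scaling and 292 at a log2 ratio of at least 2, and the number lower was 1110 with median-of-ratios scaling and 100 at a log2 ratio of at least 2. Median-of-ratios scaling lowered the ratio of genes with a value in both libraries by 0.30, except where the scaled value fell under 1 RPKM, and took the share of calls that were higher from 75.4% to 50.4%, and a mean of at least 5 RPKM took it to 64.8%. Of the members, 3 were higher with 1 RPKM required in both libraries (Mmp14, Timp1 and Timp2) and 3 at a log2 ratio of at least 2 (Mmp2, Mmp12 and Timp2), and median-of-ratios scaling called 1 lower (Mmp8) and no longer called Timp1. The log2 change of the protease to inhibitor ratio was 0.22, and it was 0.34 with a pseudocount of 1 or 0.1 RPKM and 0.11 over every Mmp and Timp gene at 1 RPKM or more in at least 1 library, which leaves out Mmp13. In alternatives chosen after seeing the data, it was 0.10 without Mmp14 and -0.44 over the proteases with a value in both libraries, which leave out Mmp2 and Mmp12, and the protease sum alone then had a log2 ratio of 0.96. The log2 ratio of the inhibitor sum was 1.4, and it was 1.10 with median-of-ratios scaling and 0.78 without Timp2. That of the protease sum was 1.62, and it was 1.71 with a pseudocount of 1 RPKM, 1.74 with 0.1 RPKM, 1.32 with median-of-ratios scaling and 1.5 without Mmp14. Counting intervals were widest for Timp1 and Mmp8, and a difference between mice cannot be seen with 1 library a group.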

Other observations

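The ADAM and ADAMTS proteases, relatives of the MMPs that shed membrane proteins or cut proteoglycans and procollagens, were not members. Of 14 measured genes 11 were higher with CCl4 and 0 lower, with a median log2 ratio of 1.29 and summed levels of 53.3 RPKM with oil and 140.1 RPKM with CCl4. Adam8, found on leukocytes, was at 2.42 and 24.7 RPKM, a log2 ratio of 3.36. Adamts2, which removes the amino-terminal propeptide of fibrillar procollagens, was at 1.01 and 11.5 RPKM (3.51). Adam10 was at 5.83 and 13.5 RPKM (1.21), and Adam15 at 5.44 and 15.5 RPKM (1.51). Adam17, which releases TNF and is blocked by TIMP3, was at 10.1 and 17.5 RPKM (0.79), short of the threshold. Adam12, Adamts5, Adamts12 and Adamts14 were listed at 0 with oil and lay between 2.10 and 5.16 RPKM with CCl4.

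Thrombospondin genes, whose proteins bind MMPs and are taken up with them through the receptor encoded by Lrp1, were also higher. Thbs1 was at 3.79 and 11.7 RPKM (1.62), and Thbs2 was listed at 0 and at 9.06 RPKM, while Lrp1 was at 81.1 and 117.7 RPKM (0.54). Of the lymphocyte markers, the B cell receptor gene Cd79b was at 3.67 and 11.2 RPKM (1.61). The T cell genes Cd3g, at 2.61 and 1.66 RPKM (-0.65), and Cd4, at 2.07 and 2.14 RPKM (0.05), were not called, and Cd3e and Cd8a were listed at 0 in both libraries. Of 4 measured cholangiocyte markers 2 were higher, Krt19 at 8.86 and 17.8 RPKM and Spp1, which is also on the macrophage list, at 37.4 and 145.1 RPKM, and Sox9 and Cftr were listed at 0 in both libraries.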
